A study of Mus musculus with 8 samples.

Results

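The comparison described here set bone marrow cultures that carried a mutant phosphatidylserine synthase 1 against cultures that carried the wild-type enzyme, gene by gene, on day 3 and on day 6 of osteoclast formation. Its members were chosen by title: the 2 arrays of the PSS1-LMS culture and the 2 arrays of the PSS1-WT culture, matched by day, 4 of the 8 arrays in the series. Every culture was started from mouse bone marrow cells of the C57BL6/J strain, and each culture and day was 1 array hybridised with biotinylated cDNA from 500 ng of total RNA. Both PSS1 cultures received 50 ng/ml M-CSF together with 100 ng/ml RANKL and, a day later, a retrovirus for the mutant or for the wild-type enzyme. The other 4 arrays came from cultures kept in M-CSF alone (50 ng/ml, no RANKL) or in M-CSF+RANKL at the same doses, on the same days. The labels do not give the mutation, the species of the insert, or whether the cultures without a PSS1 insert got a control virus, and they name no replicate cultures or separate animals.

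PSS1, the product of Ptdss1, makes phosphatidylserine by exchanging the choline of phosphatidylcholine for serine, and the cell's output of this lipid is normally held down by feedback. LMS commonly stands for Lenz-Majewski syndrome, in which bone is abnormally dense owing to PTDSS1 mutations that release the enzyme from that feedback. Osteoclasts form when macrophage precursors grown in M-CSF meet RANKL: macrophage genes are shut off, genes of bone resorption are switched on, and the precursors fuse.

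Ptdss1 itself set the transduced cultures apart from the others. Its log2 signal was 18.91 on day 3 and 18.06 on day 6 in PSS1-WT and 18.79 and 17.50 in PSS1-LMS, against 9.56 and 10.36 in M-CSF+RANKL and 10.31 and 10.33 in M-CSF. The signal was thus far above the endogenous level in all 4 PSS1 arrays, and the PSS1-LMS culture lay 0.12 below the PSS1-WT culture on day 3 and 0.57 below it on day 6. The average difference was -0.34 ± 0.37 (SE; limma, adjusted p = 0.882). This lower Ptdss1 signal runs along with every difference given below, and its part in them was not tested. Both PSS1 cultures carried the markers of osteoclasts. The summed signal of 18 resorption genes, in log2, was 21.95 and 21.93 in PSS1-WT and 21.94 and 22.03 in PSS1-LMS. It was 22.11 and 22.10 in M-CSF+RANKL and 15.19 and 15.73 in M-CSF. Signals are log2 values with a ceiling at 19.93, so genes near that value have little room to rise. The 23 background probe sets reached 5.97 and 5.54 in the PSS1-WT arrays and 5.86 and 6.26 in the PSS1-LMS arrays, and a signal at or under that value of its own array is called within background.

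Few genes were 2-fold apart between the mutant and the wild-type culture on both days. Of 10871 measured genes, 11 (0.101%) were at least 2-fold higher in PSS1-LMS than in PSS1-WT on both days and 2 (0.0184%) were at least 2-fold lower. The 11 were Cd81, Pmp22, C1qb, Dab2, Mgst1, Celf2, Sirpb1c, Ncf1, Tfb1m, Tlr13 and Cdc45, and the 2 were Akap13 and P2rx5. This split depends on the scaling: with each array centred on its median it was 4 higher and 5 lower, and with quantile normalization 5 higher and 3 lower. Likewise 33.1% of all measured genes were higher and 22.9% lower on both days by any amount as deposited, and 23.5% and 32.4% after centring. Another 3 genes (0.0276%) were 2-fold apart in opposite directions on the 2 days, none of them above background in all 4 arrays. On day 3 alone 79 genes (0.727%) were 2-fold higher and 60 (0.552%) lower, and on day 6 alone 231 (2.12%) and 100 (0.92%). The gene nearest to the 2-fold limit from inside was Cdc45, at 1.01 on its smaller day. The nearest from outside were Tlr7 at 0.996, Irak1bp1 at -0.97, Cd93 at 0.96 and Fcgr3 at 0.955.

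None of these differences passed the test. With the 6 arrays of cultures that had RANKL, limma called 0 of 10871 genes at an adjusted p under 0.05 (0%), and 773 (7.11%) had an unadjusted p under 0.05, 532 higher (4.89%) and 241 lower (2.22%). The smallest adjusted p was 0.0792, shared by Akap13 and Cd81, and the next was 0.186. With only the 4 PSS1 arrays in the fit, 32 genes were called higher (0.294%) and 4 lower (0.0368%), and leaving out either M-CSF+RANKL array gives that same fit. Leaving out the PSS1-WT array of day 3 gave 38 higher and 10 lower, the PSS1-LMS array of day 3 19 and 7, the PSS1-WT array of day 6 0 and 0, and the PSS1-LMS array of day 6 3 and 1. These p-values rest on how far the culture differences changed between the 2 days and on a variance pooled over all measured genes. With the 4 PSS1 arrays the pooled variance dominated, at 33.5 degrees of freedom against 1 residual. Those p-values thus mainly follow the size of the difference. Leaving out a PSS1 array leaves its culture with 1 array, so PSS1-LMS minus PSS1-WT is then not repeated over days. The p-values of such fits do not measure its change between days. None of these p-values covers the spread over animals or repeat cultures, which these arrays do not hold.

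Akap13 encodes an A-kinase anchoring protein, a scaffold that holds protein kinase A at its targets. Its log2 signal was 8.18 and 8.65 in PSS1-WT on days 3 and 6 and 6.69 and 6.92 in PSS1-LMS, with 7.69 and 7.95 in M-CSF+RANKL and 7.88 and 7.501 in M-CSF. The 2 PSS1-LMS arrays were the lowest of the 8 and the 2 PSS1-WT arrays the highest, so part of the gap to PSS1-WT came from a wild-type level above that of the cultures without a transgene. The average difference was -1.61 ± 0.24, a 3.06-fold lower signal (adjusted p = 0.0792 with 6 arrays and 0.00136 with the 4 PSS1 arrays). RANKL itself moved Akap13 by 0.13 on average.

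P2rx5 encodes an ATP-gated ion channel and is a gene that RANKL raises. In M-CSF it was within background at 3.52 and 3.14, and in M-CSF+RANKL it reached 9.43 and 8.64. PSS1-WT was close to the latter at 9.17 and 8.99, and PSS1-LMS was below both at 7.53 and 7.96. The gap was wider on day 3 (-1.64) than on day 6 (-1.04). The average was -1.34 ± 0.29, 2.53-fold lower (adjusted p = 0.252; 0.0073 with the 4 PSS1 arrays). The other measured P2X receptors of the purinergic list lay on the opposite side. P2rx7, whose protein opens a pore and has been linked to macrophage fusion, was higher by 0.39 and 1.45, with the PSS1-WT signal of day 6 within background. P2rx4, another ATP-gated channel, was higher by 0.78 and 0.91, with 6.21 and 6.08 in PSS1-WT and 6.99 in both PSS1-LMS arrays. Of 9 measured purinergic genes 5 were higher and 1 was lower on both days, against 33.1% and 22.9% of all genes, with a median of 0.48, and 5 and 2 after centring. That median is 0.00 when signals under 7.13, the brightest background probe set of any array, are raised to that value.

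Cd81, Pmp22 and C1qb were the genes with the largest average differences upward among those 2-fold higher on both days. Cd81, a tetraspanin of the plasma membrane, stood at 17.55 and 18.02 in M-CSF and 10.60 and 12.45 in M-CSF+RANKL. It was 10.62 and 12.30 in PSS1-WT, level with the culture without a transgene, and 11.97 and 14.05 in PSS1-LMS, above both on each day. The average difference was 1.55 ± 0.25, 2.92-fold higher (adjusted p = 0.0792; 0.00136 with the 4 PSS1 arrays). Of 16 measured tetraspanins the median difference was 0.06, against 0.04 over all measured genes, and -0.03 against -0.04 after centring. Cd9, a tetraspanin that acts in osteoclast fusion, differed by -0.23 ± 0.24, and Cd63 of late endosomes by 0.06.

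Pmp22, a small membrane protein best known from myelin, stood at 16.32 and 17.65 in M-CSF and at 9.38 and 11.74 in M-CSF+RANKL. It was 10.61 and 11.54 in PSS1-WT and 11.94 and 13.39 in PSS1-LMS. On day 3 both PSS1 cultures were above M-CSF+RANKL, by 1.23 and 2.56, and on day 6 only PSS1-LMS was, by 1.64. The average difference between the PSS1 cultures was 1.59 ± 0.31, 3.01-fold (adjusted p = 0.186; 0.00136 with 4 arrays). In its family, Emp1 was higher by 0.85 ± 0.33 and Emp3 was near the ceiling in PSS1-WT and differed by 0.05. On day 6 Emp1 was 12.08 in PSS1-WT, 13.13 in PSS1-LMS and 13.28 in M-CSF+RANKL.

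C1qb encodes a chain of C1q, the complement component that macrophages make and that binds phosphatidylserine on dying cells among other ligands. Its signal was 15.09 and 16.86 in M-CSF and 7.0004 and 8.62 in M-CSF+RANKL. PSS1-WT held 6.94 and 7.29 and PSS1-LMS 8.01 and 9.29, so the mutant culture was the higher one on both days but lay far under the M-CSF level. The average difference was 1.53 ± 0.29, 2.89-fold (adjusted p = 0.186; 0.00258 with 4 arrays). On day 6 the PSS1-WT signal was itself 1.32 below M-CSF+RANKL, and PSS1-LMS was 0.67 above it. The sister chain C1qc had 6.21 and 6.68 in PSS1-WT and 6.58 and 7.61 in PSS1-LMS (0.65 ± 0.26). C1qa, at 4.89 and 6.01 against 5.35 and 5.79, was within background in 3 of the 4 arrays and differed by 0.12, in opposite directions on the 2 days.

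The other genes that were 2-fold higher on both days included several of innate immune cells. Dab2, an endocytic adaptor, was 10.13 and 10.34 in PSS1-WT and 11.18 and 12.01 in PSS1-LMS, against 17.82 and 18.15 in M-CSF. Ncf1, the p47 subunit of the phagocyte NADPH oxidase, was 9.38 and 9.52 against 10.44 and 10.70. Tlr13, a receptor for bacterial ribosomal RNA, was 8.26 and 8.99 against 9.38 and 10.03. In each of the 3 genes both PSS1-LMS arrays exceeded both PSS1-WT arrays, which the 2-fold choice makes likely, and both M-CSF+RANKL arrays. The share of all genes in this order was not computed. Sirpb1c, of the signal-regulatory protein family, was 7.97 and 7.90 against 9.18 and 8.94. Mgst1, a microsomal glutathione transferase, was 7.23 and 7.71 against 8.44 and 9.12, and Celf2, an RNA-binding splicing regulator, 6.80 and 7.24 against 7.94 and 8.63. All 6 were at least 8-fold lower with RANKL than without it on both days. Tfb1m, a mitochondrial ribosomal RNA methyltransferase, and Cdc45, a part of the replicative helicase, were the exceptions: RANKL moved them by 0.68 and -0.56 on average, and their signals were low, at 5.76 and 5.85 against 6.85 and 6.95 for Tfb1m and 5.98 and 5.66 against 6.99 and 6.87 for Cdc45. Tfb1m was within background in 1 array, and its average fold is 1.99 when that signal is raised to the background.

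**Figure D1:**
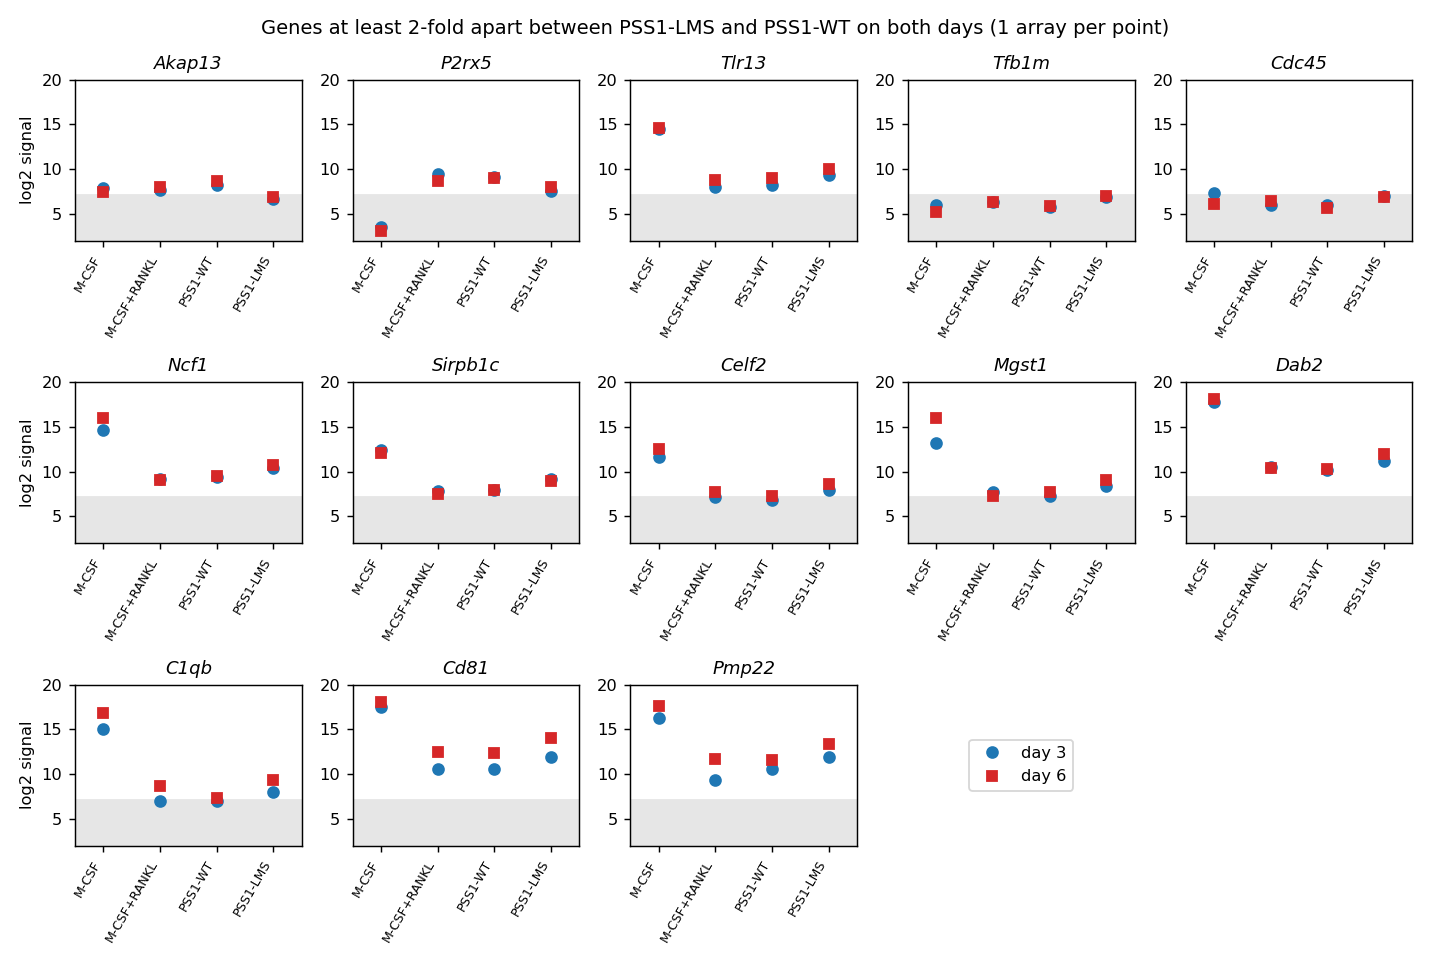
Log2 signal of the 13 genes at least 2-fold apart on both days, 1 point per array (circle day 3, square day 6), by culture; the grey band reaches 7.13, the brightest background probe set of any array. Akap13 and P2rx5 are lowest in PSS1-LMS among the cultures with RANKL, and Cd81, Pmp22, C1qb, Dab2, Ncf1, Tlr13, Sirpb1c, Mgst1 and Celf2 sit well above all others in M-CSF and slightly higher in PSS1-LMS than in PSS1-WT.

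Promoters of these genes were read because most of them move together with RANKL. PU.1, the product of Spi1, is a factor that macrophages and osteoclasts both use, and its core motif is GAGGAA. RefSeq promoters (build GRCm38.p6) were given for 12 of the 13 genes, as 21 windows of the 250 bases before a start. The core was present on either strand in 6 of the 21 windows, of 5 genes (C1qb, Celf2, Dab2, Mgst1 and Tlr13). Of all 32851 windows of that length 23.3% hold it, a share close to that of the 21. The shorter NFAT core GGAAA was in 15 of the 21 windows, of 9 genes, against 55.6% of all windows. The MAF motif TGCTGA was in 4 windows of 4 genes, against 16.1%, likewise close, and the AP-1 site TGACTCA in 0, against 4.46%. Shares by gene were not computed over all genes, and no count of a motif was tested. These motifs can overlap, since GAGGAA followed by A contains GGAAA. The windows of C1qb, Dab2 and Tlr13 were picked for display because they hold the core. That of Akap13 is shown as the lower gene, with none. The core was also absent from every window of the higher genes Cd81, Pmp22, Sirpb1c, Ncf1, Tfb1m and Cdc45. Each is written 5′ to 3′ on the strand of its gene, and capitals mark the core or its reverse complement TTCCTC.
C1qb, chr4:136886201-136886450, minus strand: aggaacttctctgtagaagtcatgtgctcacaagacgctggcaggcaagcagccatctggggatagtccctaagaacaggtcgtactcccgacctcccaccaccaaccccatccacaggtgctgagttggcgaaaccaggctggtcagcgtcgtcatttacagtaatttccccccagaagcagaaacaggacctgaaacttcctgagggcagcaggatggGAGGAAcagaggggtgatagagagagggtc
Dab2, chr15:6299539-6299788, plus strand: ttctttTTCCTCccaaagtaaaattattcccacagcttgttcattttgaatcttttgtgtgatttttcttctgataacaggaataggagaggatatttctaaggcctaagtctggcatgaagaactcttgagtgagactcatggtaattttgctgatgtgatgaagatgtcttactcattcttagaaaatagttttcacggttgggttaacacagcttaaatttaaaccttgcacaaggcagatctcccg
Tlr13, chrX:106143025-106143274, plus strand: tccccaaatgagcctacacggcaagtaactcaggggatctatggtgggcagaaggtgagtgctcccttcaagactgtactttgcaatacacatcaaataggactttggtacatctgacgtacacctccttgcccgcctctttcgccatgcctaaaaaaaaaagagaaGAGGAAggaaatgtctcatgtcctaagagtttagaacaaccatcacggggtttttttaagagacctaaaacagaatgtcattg
Akap13, chr7:75455284-75455533, plus strand: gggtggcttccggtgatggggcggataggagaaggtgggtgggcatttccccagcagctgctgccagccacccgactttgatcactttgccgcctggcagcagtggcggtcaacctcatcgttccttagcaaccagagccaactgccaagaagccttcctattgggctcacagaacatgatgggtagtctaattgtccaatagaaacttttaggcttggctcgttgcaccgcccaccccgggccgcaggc
A match is a description of these letters only; no binding was measured. Spi1 itself was near the ceiling in every array with RANKL, at 19.57 in both PSS1-WT arrays and 19.63 and 19.60 in PSS1-LMS.

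The fit on the 4 PSS1 arrays called 36 genes, and these give a wider view of what was higher with the mutant. Of the 32 higher genes, 23 were at least 2-fold lower with RANKL on both days and 20 at least 8-fold lower; over all measured genes these shares were 9.94% and 2.27%. Of the 4 lower genes, P2rx5 was at least 2-fold higher with RANKL, Akap13 was not, and Il1rapl2 and Fam167b were within background in all 4 arrays. Genes of this fit that were not 2-fold apart on both days are named here after their values were seen. Ccl3, a chemokine of macrophages, was 8.53 and 8.27 in PSS1-WT and 9.44 and 10.35 in PSS1-LMS (1.496 ± 0.30; adjusted p = 0.186 with 6 arrays, 0.00491 with 4). Fcgr3, a low-affinity receptor for IgG, was 10.60 and 10.53 against 11.55 and 12.32, and Tlr7, a sensor of single-stranded RNA, 9.47 and 9.19 against 10.47 and 10.76. In all 3 both PSS1-LMS arrays exceeded both PSS1-WT arrays, an order that the choice of called genes makes likely. C3ar1, the receptor for complement C3a, was 10.40 and 9.68 against 11.01 and 11.64, and Trem2, a lipid-binding receptor that signals through an ITAM adaptor, 9.43 and 8.67 against 10.21 and 10.14. Cd93, a receptor of monocytes and endothelium, was 7.25 and 7.29 against 8.21 and 8.53. Slc7a8, an amino acid transporter, was 11.20 and 11.06 against 12.10 and 12.50. Each of these 7 genes was at least 8-fold lower with RANKL than without it on both days, and the PSS1-LMS signal was nearer to M-CSF+RANKL than to M-CSF in each but Ccl3 on day 6, which had 8.14 in M-CSF+RANKL and 12.47 in M-CSF. In bulk RNA, a change in the number of cells with a transcript and a change in its amount per cell cannot be told apart.

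**Figure D2:**
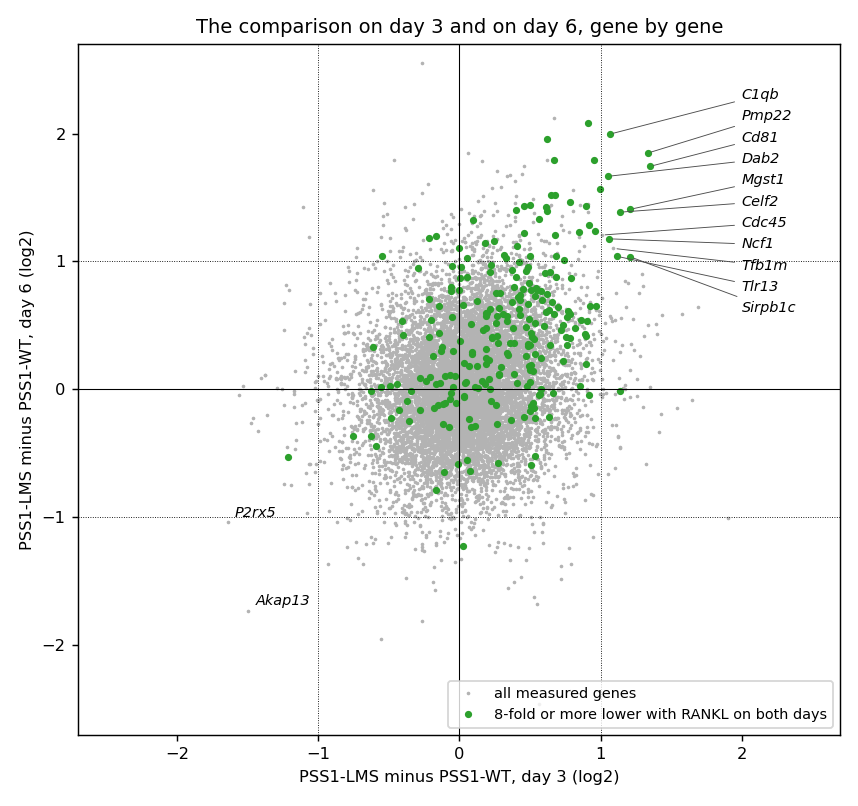
Difference between PSS1-LMS and PSS1-WT in log2 units on day 3 (x) and day 6 (y) for the 10871 measured genes in grey, with the 247 genes at least 8-fold lower with RANKL on both days in green; dotted lines mark 2-fold, and the 13 genes past it on both days are named. The green points lie mostly in the upper right, where 163 of the 247 are higher on both days, and Akap13 and P2rx5 stand apart at the lower left.

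Across all measured genes the 2 days shared little: the differences correlated at r = 0.163 (0.159 by rank) over 10871 genes, which are not independent replicates. Of the 13 genes past 2-fold on both days, 10 of the 11 higher and both lower ones were among the 7213 genes above background in all 4 PSS1 arrays, and none was among the 2355 within background in all 4. The 5222 negative control probe sets spread more widely (SD 1.02 on day 3 and 1.06 on day 6) with r = 0.0169 between days, and on both days 92 of them exceeded 2-fold upward and 153 downward. The level of the arrays bears on the direction of the counts. Centring each array on its median over measured genes shifts the comparison by -0.11 on day 3 and -0.06 on day 6, and it turns the split at an unadjusted p under 0.05 from 532 higher and 241 lower to 327 and 416. After centring, the genes 2-fold higher on both days were Cd81, Pmp22, Mgst1 and Celf2, and the 5 lower ones were Akap13, P2rx5, Il1rapl2, Irak1bp1 and Igfbp7. With centring, the fit on the 4 PSS1 arrays called Cd81 and Pmp22 higher (adjusted p = 0.04998 for each) and Akap13 lower (adjusted p = 0.0186).

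The differences varied with how each gene responded to RANKL, which was read from the M-CSF and M-CSF+RANKL arrays, so the groups were formed on none of the 4 PSS1 arrays. The 247 genes (2.27%) that were at least 8-fold lower with RANKL on both days had a median PSS1-LMS minus PSS1-WT difference of 0.35 on day 3 and 0.44 on day 6. Of them 163 (66%) were higher in PSS1-LMS on both days and 23 (9.31%) lower, against 33.1% and 22.9% of all genes, and 80 (32.4%) were higher at an unadjusted p under 0.05, against 4.89%. The 257 genes (2.36%) at least 8-fold higher with RANKL had medians of -0.07 and 0.02, with 72 higher (28%) and 92 lower (35.8%) on both days. Among the RANKL-raised genes the lower share was thus above that of all genes and the higher share below it, though the average difference had a median of only -0.05 against 0.04. The median gap between M-CSF and M-CSF+RANKL was 4.77 for the RANKL-lowered genes, against a median difference between the PSS1 cultures of 0.39.

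The median difference was largest in the genes that RANKL lowered most. It was 0.60 for the 56 genes lowered by more than 6 log2 units, 0.32 for the 307 lowered by 3 to 6, 0.13 for the 1340 lowered by 1 to 3 and 0.02 for the 7335 that moved by less than 1. For genes raised by RANKL it was 0.02 at 1 to 3, -0.05 at 3 to 6 and -0.04 at 6 and over. Within bands of mean signal in the PSS1 arrays, the 8-fold RANKL-lowered genes had a higher median than all genes of the band in each of the 5 bands: 0.11 against -0.01 under 6, near background, 0.33 against 0.08 at 6 to 8, 0.59 against 0.07 at 8 to 10, 0.51 against 0.04 at 10 to 12, and 0.61 against 0.05 at 12 and over, where they were only 18 genes. The 8-fold RANKL-raised genes lay below all genes at 8 to 10 (-0.06), 10 to 12 (-0.17) and 12 and over (-0.03), but above them at 6 to 8 (0.13, over 23 genes), and 1 such gene was under 6. The finer grading by size of the RANKL response was not computed within bands. With only genes above background in the 4 arrays, 162 RANKL-lowered genes had a median of 0.48, with 127 higher and 5 lower on both days, against 0.07 over 7213. Of the 254 RANKL-raised genes above background 70 were higher (27.6%) and 92 lower (36.2%), against 37.3% and 21% of the 7213. With centred arrays the RANKL-lowered genes had a median of 0.31 against -0.04 for all genes, with 140 higher (56.7%) and 38 lower (15.4%). The RANKL-raised genes then had a median of -0.14, with 47 higher (18.3%) and 123 lower (47.9%), against 23.5% and 32.4% of all genes. Over all genes, the RANKL response correlated with the PSS1 comparison at r = -0.13 on day 3 and -0.166 on day 6 (n = 10871 genes, no shared arrays).

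**Figure D3:**
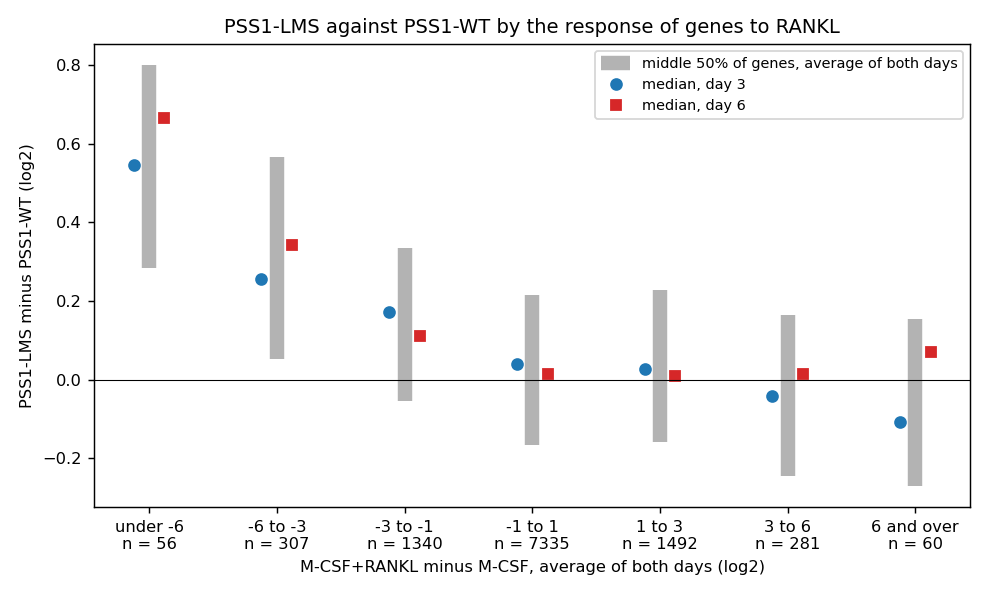
Median difference between PSS1-LMS and PSS1-WT (log2, y) on day 3 (circles) and day 6 (squares) for genes binned by their RANKL response (log2, x), with the middle 50% of genes of each bin for the average of both days as a grey bar. Genes lowered most by RANKL sit highest, at 0.55 and 0.67, and bins from -1 upward lie between -0.11 and 0.07.

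Macrophage identity genes had the highest median of the lists with 5 or more measured members when both days were averaged, at 0.63. By day they did not: their medians were 0.41 on day 3, under the LXR targets and cell cycle genes at 0.47 each, and 0.62 on day 6, under complement at 0.79 and purinergic genes at 0.68. When signals under 7.13 are raised to that value their median is 0.24 and that of the cell cycle genes 0.34. Of 17 measured members 11 were higher and 3 lower on both days, against 33.1% and 22.9% of all genes, and 10 had an unadjusted p under 0.05, all higher, against 4.89% of all genes higher. After centring 11 were higher and 4 lower on both days, against 23.5% and 32.4% of all genes, and 9 were higher and 1 lower at an unadjusted p under 0.05. Of the members, 5 were within background in all 4 arrays. Lyz2, the lysozyme of myeloid cells, was 17.61 and 17.64 in PSS1-WT and 18.09 and 18.62 in PSS1-LMS. Mrc1, the mannose receptor, was 9.11 and 10.49 against 9.97 and 11.04, and Adgre1, which encodes F4/80, 8.94 and 9.01 against 9.18 and 10.17. Ly86, which encodes the Cd180-binding protein MD-1, was 7.17 and 6.93 against 7.85 and 7.80. In Lyz2, Adgre1 and Ly86 both mutant arrays exceeded both wild-type arrays, an order whose share over all genes was not computed. In Mrc1 the mutant array of day 3 was below the wild-type array of day 6. Csf1r, the M-CSF receptor that osteoclasts keep, did not share the shift, at 16.75 and 16.44 against 16.52 and 16.39 (-0.14 ± 0.24). Cd163 and Cx3cr1 were within background in all 4 arrays. The summed linear signal of the 18 members named on the array, in log2, was 18.28 and 18.22 in PSS1-WT and 18.55 and 18.95 in PSS1-LMS, between M-CSF+RANKL (17.93 and 18.16) and M-CSF (20.48 and 21.35). In the PSS1 arrays this sum came almost wholly from Lyz2, higher in PSS1-LMS, and Csf1r, lower in it. It says little of the other members.

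Several receptors of innate immunity were also higher in the mutant culture. Of 11 complement genes 7 were higher and 2 lower on both days, against 33.1% and 22.9% of all genes (median 0.46). After centring they were 7 and 3, against 23.5% and 32.4% of all genes. C5ar1, the C5a receptor, was 9.38 and 9.61 in PSS1-WT and 10.00 and 11.0005 in PSS1-LMS (1.01 ± 0.26). Of 14 ITAM adaptors and immunoreceptors 7 were higher and 2 lower (median 0.17), and 6 and 3 after centring. Besides Fcgr3 and Trem2, the inhibitory IgG receptor Fcgr2b was 8.02 and 6.67 against 8.48 and 8.42 and the common chain Fcer1g 15.80 and 14.70 against 15.95 and 16.05. The larger part of both differences was on day 6, when PSS1-WT had moved below M-CSF+RANKL, at 7.31 and 15.60 for the respective genes. Osteoclast partners of the same pathway were less far apart, with 0.07 ± 0.25 for the adaptor Tyrobp, -0.04 for the kinase Syk and 0.44 ± 0.28 for the receptor Oscar. Of 10 inflammatory genes 8 were higher and 1 was lower on both days (median 0.37), and 6 and 2 after centring, led by Ccl3 and followed by the chemokine Ccl2, at 6.68 and 6.83 against 6.81 and 7.99. The chemokine Ccl4 was lower by 0.38 and 0.16. When signals under 7.13 are raised to that value, the medians are 0.24 for complement, 0.05 for ITAM and 0.17 for inflammatory genes. None of these list members passed the 6-array test.

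Genes of resorption and fusion had medians close to that of all genes. Of 18 resorption genes 3 were higher (16.7%) and 5 lower (27.8%) on both days, against 33.1% and 22.9% of all genes, with a median of 0.00 against 0.04. The counts depend on the scaling: after centring 1 was higher (5.56%) and 10 lower (55.6%), against 23.5% and 32.4% of all genes, with a median of -0.08 against -0.04. Acp5, the tartrate-resistant phosphatase, was 19.84 and 19.86 in PSS1-WT and 19.86 and 19.89 in PSS1-LMS, and Ctsk, the collagen-degrading cathepsin, 19.64 and 19.84 against 19.63 and 19.90, both against the ceiling. Genes with room on the scale also lay close. Dcstamp, needed for fusion, was 16.28 and 16.61 against 16.28 and 16.69 (0.04 ± 0.25). Nfatc1, the transcription factor that drives the osteoclast programme, was 14.74 and 13.75 against 14.67 and 13.60 (-0.11 ± 0.24). Calcr, the calcitonin receptor of mature osteoclasts, was 13.37 and 13.99 against 12.77 and 14.39, lower on day 3 and higher on day 6, and Car2, the carbonic anhydrase that supplies protons, 15.22 and 15.53 against 14.63 and 15.53. With standard errors near 0.25, taken mostly from the pooled variance, differences much smaller than 2-fold could not be told from changes between days.

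Single members of the osteoclast lists did differ more. Slc9b2, a sodium-proton exchanger raised by RANKL, was 8.93 and 7.65 in PSS1-WT and 9.36 and 8.69 in PSS1-LMS, opposite in direction to P2rx5 (0.74 ± 0.26, adjusted p = 0.598). Both PSS1 cultures were below M-CSF+RANKL, at 9.74 and 8.98, and PSS1-WT was further below it on each day. Sh3pxd2a, the podosome scaffold Tks5, was 11.06 and 11.59 against 10.67 and 10.56 (-0.71 ± 0.26, adjusted p = 0.598). Src, the kinase needed for the ruffled border, was lower by 0.34 and 0.31, and Jdp2, an AP-1 family factor, by 0.49 and 0.31. Of 15 fusion and adhesion genes 4 were higher (26.7%) and 5 lower (33.3%) on both days (median -0.01). Of 19 podosome and actin ring genes 7 were higher (36.8%) and 4 lower (21.1%), with a median of 0.02. Of 19 RANK signalling and transcription factor genes 4 were higher (21.1%) and 6 lower (31.6%), with a median of 0.02 and no member at an unadjusted p under 0.05. Over all genes the shares were 33.1% and 22.9%. After centring these 3 lists had 4 higher and 7 lower (46.7%), 5 and 7 (36.8%), and 2 and 10 (52.6%). The shares of all genes were then 23.5% higher and 32.4% lower. Of 16 V-ATPase subunits, the proton pump of lysosome and ruffled border, 3 were higher and 5 lower (median 0.10), and the same numbers after centring. Atp6v0a1, a subunit that RANKL lowers, was the highest at 0.47 ± 0.28.

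**Figure D4:**
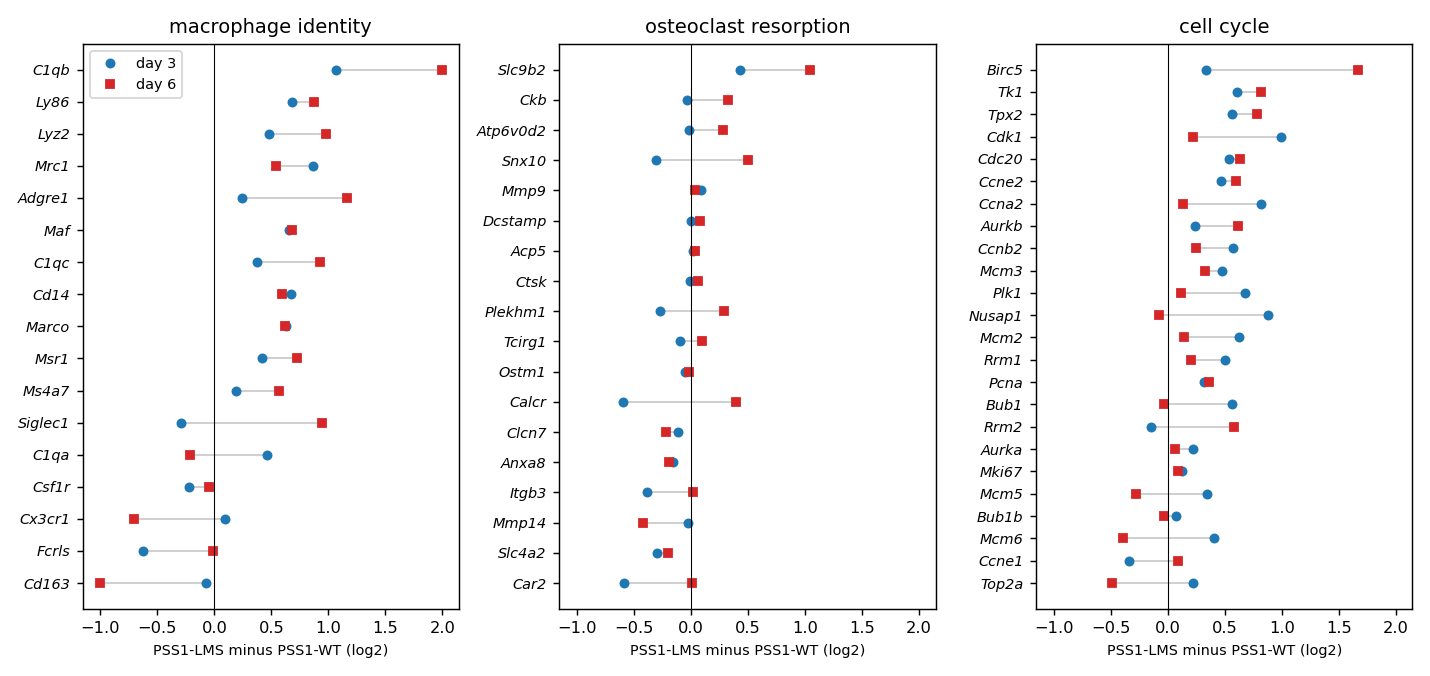
Difference between PSS1-LMS and PSS1-WT in log2 units (x) on day 3 (circles) and day 6 (squares) for each measured gene (y) of the macrophage identity, osteoclast resorption and cell cycle lists. Of the macrophage and cell cycle genes 11 of 17 and 16 of 24 lie right of 0 on both days, and of the resorption genes 3 of 18.

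Genes of phospholipid synthesis, the pathway of the transgene, did not move together. Of 13 genes of phosphatidylserine and phosphatidylethanolamine synthesis 3 were higher (23.1%) and 4 lower (30.8%) on both days (median -0.04). The 4 lower genes include Ptdss1 itself (-0.12 and -0.57), whose signal was far above the endogenous level in both PSS1 cultures. Over all genes the shares were 33.1% and 22.9%. None of the 13 had an unadjusted p under 0.05, against 7.11% of all genes, which says little for so few genes. After centring 3 were higher (23.1%) and 6 lower (46.2%), against 23.5% and 32.4% of all genes. At an unadjusted p under 0.05, 2 were then lower, against 416 of all 10871 genes. Ptdss2, the second phosphatidylserine synthase, was 8.26 and 8.07 in PSS1-WT and 7.79 and 7.62 in PSS1-LMS. Both mutant arrays were below both wild-type arrays and both M-CSF+RANKL arrays (8.18 and 8.202), an order whose share over all genes was not computed. The average difference was -0.45 ± 0.24 (limma, adjusted p = 0.751). Pisd, the decarboxylase that turns phosphatidylserine into phosphatidylethanolamine, differed by 0.29 and 0.14, and Chkb, a choline and ethanolamine kinase, by -0.39 and -0.50. Among 15 flippases and scramblases, which move phosphatidylserine between membrane leaflets, 4 were higher (26.7%) and 3 lower (20%), with a median of -0.01. After centring 3 were higher (20%) and 5 lower (33.3%). Atp8b4, a flippase lowered by RANKL, was 8.25 and 8.85 against 9.04 and 9.72 (0.83 ± 0.27), and Plscr3, a scramblase family member, 6.01 and 6.23 against 6.80 and 6.83 (0.70 ± 0.25). Of 18 genes for recognising phosphatidylserine on dying cells 7 were higher (38.9%) and 6 lower (33.3%), with a median of 0.13. After centring 5 were higher (27.8%) and 6 lower (33.3%). Dock1, the exchange factor of engulfment, was 6.43 and 6.73 against 7.25 and 7.42, and Cd300a, a receptor for the lipid, 7.05 and 6.97 against 7.21 and 8.08.

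Sterol and fatty acid genes held a few members above the rest. Of 19 cholesterol synthesis genes 8 were higher and 2 lower on both days (median 0.13), and 7 and 2 after centring, with the sterol carrier Stard4 at 5.65 and 5.43 in PSS1-WT and 6.25 and 6.40 in PSS1-LMS, both PSS1-WT signals being within background. Stard4 was lower in both PSS1 cultures than in M-CSF+RANKL, at 6.89 and 6.66. Of 11 fatty acid synthesis genes the elongase Elovl6 was the highest, at 6.00 and 5.49 against 6.91 and 6.94 (1.18 ± 0.25, adjusted p = 0.252; 0.0275 with 4 arrays), within background in 1 array, and Elovl5 was 11.66 and 10.60 against 11.83 and 11.99. In M-CSF+RANKL Elovl5 was 11.91 and 11.75, so on day 6 PSS1-WT was the culture further from that level. Of 8 LXR targets 4 were higher and 0 lower (median 0.31), and 4 and 1 after centring. When signals under 7.13 are raised to that value, the medians are 0.00 for cholesterol synthesis and 0.11 for LXR targets. Pltp, which transfers phospholipids between lipoproteins, was 13.08 and 12.64 against 13.72 and 14.06 (1.03 ± 0.37, adjusted p = 0.598). M-CSF+RANKL had 12.48 and 14.19, so on day 6 PSS1-WT lay further below that level than PSS1-LMS. Of 15 lysosome genes 11 were higher and 1 was lower, against 33.1% and 22.9% of all genes (median 0.22). After centring 7 were higher and 3 lower, against 23.5% and 32.4% of all genes. Lamp2, a lysosomal membrane protein lowered by RANKL, was 14.82 and 15.06 against 15.29 and 15.99.

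Most cell cycle genes were higher in the mutant culture on both days. Of 24 measured members 16 were higher and 0 lower on both days, against 33.1% and 22.9% of all genes, 6 were higher at an unadjusted p under 0.05, against 4.89%, and the median was 0.47 on day 3 and 0.17 on day 6. After centring 16 were higher and 1 lower on both days, against 23.5% and 32.4% of all genes, and 3 were higher at an unadjusted p under 0.05. Birc5, the mitotic protein survivin, was 7.48 and 7.33 in PSS1-WT and 7.82 and 8.996 in PSS1-LMS (1.001 ± 0.30, adjusted p = 0.534). Tpx2, a spindle assembly factor, was 9.12 and 9.61 against 9.68 and 10.39. Mki67, the usual marker of cycling cells, lay close in the 2 cultures (0.11) and Top2a, the mitotic topoisomerase, differed by 0.22 and -0.49. The same genes also differed with RANKL: the median member was 1.46 higher in M-CSF than in M-CSF+RANKL. Of 11 genes of p53 and apoptosis 4 were higher and 1 was lower, and 3 and 3 after centring, with the survival gene Bcl2 at 7.45 and 7.77 against 8.17 and 8.63 and the death-promoting Bcl2l11 at 9.81 and 9.49 against 10.30 and 10.42.

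Markers of other bone marrow cells moved in part with the comparison, and their part in it was not tested. Of 11 measured neutrophil genes 5 were higher (45.5%) and 2 lower (18.2%) on both days, against 33.1% and 22.9% of all genes (median 0.38). The same numbers held after centring, against 23.5% and 32.4% of all genes. Of the 11 genes 3 were within background in all 4 arrays. Their list's median is 0.05 when signals under 7.13 are raised to that value. The summed signal of the 14 members named on the array was 15.41 in PSS1-WT and 15.85 in PSS1-LMS on day 3, and 8.73 and 9.66 on day 6, so it was lower on day 6 in both cultures and higher in PSS1-LMS on each day. The day 6 sums hold members within background, which itself reached 5.54 in PSS1-WT and 6.26 in PSS1-LMS that day. Lcn2, a neutrophil granule protein that stressed macrophages also make, was 14.58 and 5.27 against 14.97 and 6.90, the PSS1-WT signal of day 6 being within background, and the defining markers Elane and Mpo were within background on day 6 in both cultures. Of 12 matrix and contractile genes 1 was higher (8.33%) and 5 lower (41.7%), with a median of -0.16. After centring 0 were higher and 7 lower (58.3%). Smooth muscle actin Acta2 was at 7.94 and 11.44 against 6.98 and 10.87 (-0.76 ± 0.28). The matrix protein Sparc was at 4.93 and 7.86 against 4.55 and 6.70 (-0.77 ± 0.30). Both Sparc signals of day 3 were within background, and the difference is -0.63 when signals under 7.13 are raised to that value. The stromal list had 3 measured members, all within background in the 4 arrays. The median of 8 monocyte and dendritic cell markers was 0.36 on day 3 and -0.14 on day 6. Of B, T and NK cell markers 2 were measured, Cd4 (0.38) and Blnk (0.14), which myeloid cells also express.

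**Figure D5:**
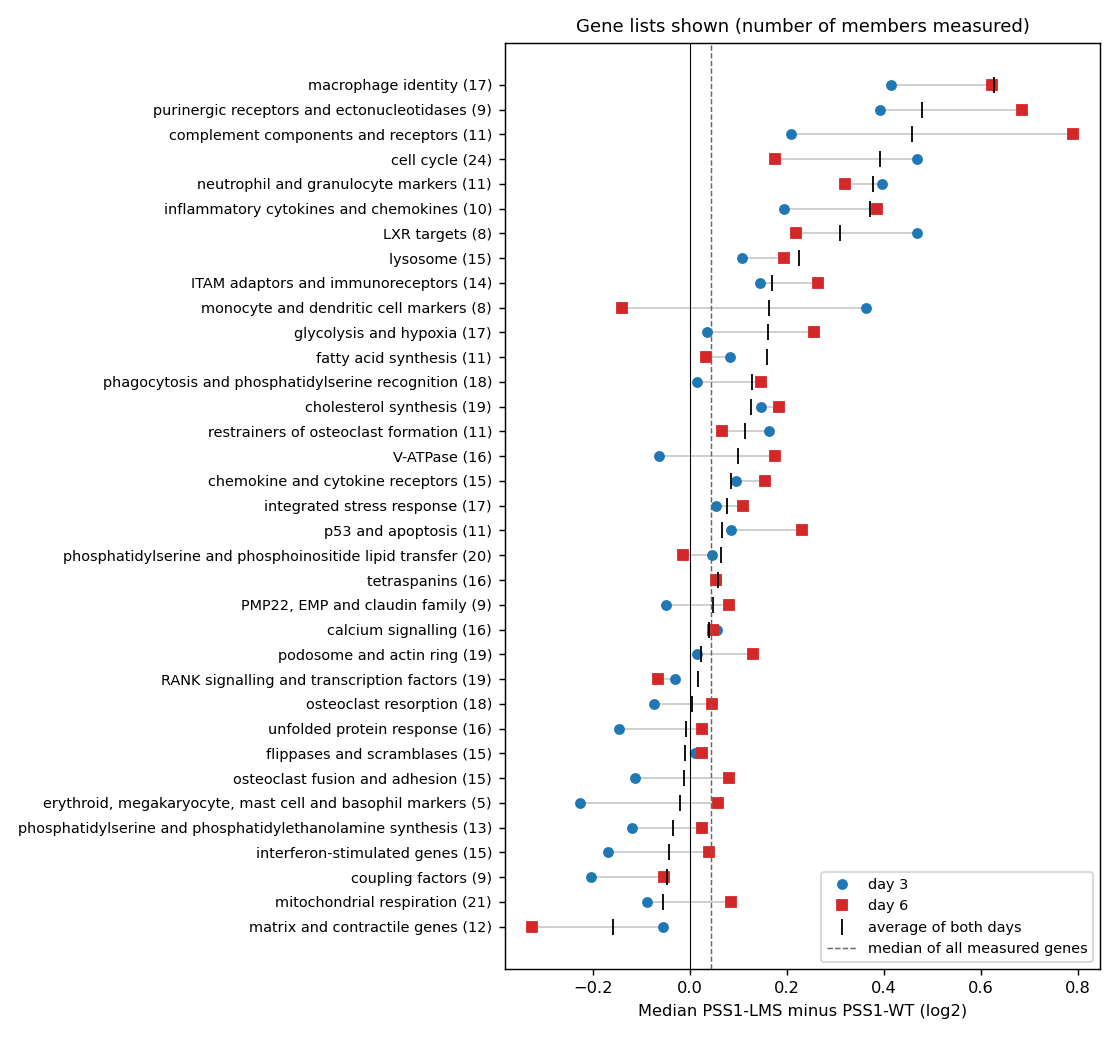
Median difference between PSS1-LMS and PSS1-WT in log2 units (x) for the gene lists shown, each with 5 or more measured members (y, number measured in brackets), on day 3 (circles), day 6 (squares) and for the average of both days (bars); the dashed line is the median of all measured genes, 0.04. For the average of both days the macrophage identity list is highest at 0.63, osteoclast resorption lies at 0.00 and matrix and contractile genes are lowest at -0.16; on day 3 LXR targets and cell cycle (0.47 each) and on day 6 complement (0.79) and purinergic genes (0.68) lie above macrophage identity.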

How the data were processed

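The authors deposited 1 table of log2 signals, 28846 features by 8 arrays, 1 per culture and day. Its probe summary and normalization are not given in the sources used here, so the log2 scale was inferred from their range. Values were used as deposited. Of 22142 transcript clusters, 19572 carried a single symbol in the platform annotation and gave 19505 genes. For 55 genes with several clusters the one with the highest mean was kept. The 10871 genes whose highest value reached 4.86, the table's median, are called measured.

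PSS1-LMS minus PSS1-WT was averaged over both days with limma 3.58.1 in R 4.3.3 (lmFit, eBayes), with culture and day as terms, on the 6 arrays with RANKL (2 residual degrees of freedom, 13.3 from the pooled variance). P-values were adjusted by Benjamini-Hochberg over all measured genes, with 0.05 as threshold, and errors are standard errors. Single days were not tested. Alternatives were other arrays in the fit, centring, quantile normalization, filters, cluster means, a trended robust fit, and leaving out each array.

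The comparison, the 38 gene lists (651 genes, 505 measured) and the naming rule were chosen with earlier results of these data known. The rule names the 5 genes given with the comparison, genes past the threshold, genes 2-fold apart on both days, each list's largest members with the same sign on both days (up to 2, or 4 past the threshold), and Ptdss1, Ptdss2 and Pisd. List members named beyond these were chosen after their values were seen. Lists are described by counts and medians, not tested. The result of 1 list is not reported here.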

Additional observations from a re-analysis of the deposited data

Results flagged for a closer look

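The list of monocyte and dendritic cell markers moved in opposite directions on the 2 days. Its median PSS1-LMS minus PSS1-WT difference over 8 measured members was 0.36 on day 3 and -0.14 on day 6. Ly6c2, a marker of inflammatory monocytes, had differences of 0.23 and -0.93, the class II gene H2-Ab1 1.01 and -0.06, and H2-Eb1 0.64 and -0.31, while Vcan, a proteoglycan of monocytes, was higher on both days (0.85 and 0.70). Of the 8 members 3 were within background in all 4 PSS1 arrays. Each day is 1 array per culture, and the difference between the days was not tested.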

How the results depend on the processing

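The counts past the threshold depended on which arrays entered the fit. They were 0 higher and 0 lower with 6 arrays, 32 and 4 with the 4 PSS1 arrays, 6 and 1 with a trended robust fit, 1 and 1 with a stricter filter, and, chosen after seeing the data, 2 and 1 with the 4 PSS1 arrays centred. Leaving out 1 array in turn gave between 0 and 38 higher and between 0 and 10 lower. All 8 arrays, centring, quantile normalization, no filter and cluster means gave 0 and 0. The 11 genes 2-fold higher on both days became 4 with centring and 5 with quantile normalization, and the 2 lower became 5 with centring, 3 with quantile normalization and 6 with no filter. For single named genes, leaving out a PSS1 array turned the sign of 6 differences, none of them past the threshold in the 6-array fit. Phgdh ranged from -0.65 to 0.013, Tspan4 from -0.070 to 0.81 and Ifih1 from -0.079 to 0.47. Pisd ranged from -0.075 to 0.50, Fermt3 from -0.029 to 0.69 and Ptdss1 from -0.98 to 0.29. Such a fit has 1 array of a PSS1 culture and takes the missing day from the day term, which M-CSF+RANKL shares. The arrays are matched by day, which is a term in every fit, and the labels give no replicate numbers. Each culture and day is 1 array, so the number of arrays limits every value, and signals near background or the ceiling limit small differences.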

Other observations

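Measured transcript clusters without a single gene symbol, 1269 in all, held 5 that were at least 2-fold apart on both days. In 4 the signal was lower in PSS1-LMS. One of them had 12.63 and 13.94 in PSS1-WT and 11.17 and 11.93 in PSS1-LMS, and another 13.37 and 14.31 against 12.26 and 12.80. The third had 12.42 and 12.98 against 11.32 and 11.92, and the fourth 7.03 and 7.51 against 5.51 and 5.84. In the fifth, within background in all 4 arrays, the signal was higher in PSS1-LMS (3.12 and 3.06 against 5.15 and 4.25). The time course of the M-CSF+RANKL culture, day 6 minus day 3, correlated across 10871 genes with the PSS1 comparison at r = 0.03 on day 3 and -0.003 on day 6.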
